A study of Arabidopsis thaliana with 26 samples.

Results

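The genes raised by drying in both lines were 119 of the 22746 non-control probe sets of the Arabidopsis ATH1 array, whose signal was higher after drying of cut aerial tissue in both lines that were dried. They were chosen from measured values. L is the mean over a group's arrays of log2(intensity + 16), and a probe set was taken when L was at least 0.8 higher in drought than in control in wild type and also in sf6, and less than 1.5 higher in cold than in control in wild type. The drying thresholds were met by 142 probe sets, of which 14 were removed by the cold limit and 9 more, among them STZ, ORA47, CML23 and CML38, by a fixed list of 15 genes that is not described here. Of the other 6 genes of that list, none met the numeric rule on a probe set annotated with that gene alone. COR15B and PUB19 among them passed the drying thresholds but not the cold limit. A listed gene on a probe set without a single-gene annotation would not have been recognised. Because the drying changes and the wild-type cold change chose the members, they are given below as descriptions with no test. So is the difference between the drying changes of wild type and sf6, which is made of values the rule used.

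Arabidopsis thaliana seedlings of background Columbia-0 (wt) and of 3 lines from EMS mutagenesis, labelled sf6, sf3 and sf2 and tied by the series title to the mutations sfr6, sfr3 and sfr2, were grown on agar with 0.5x Murashige-Skoog medium at 21 °C, 100% humidity and continuous light. SFR6 is known to encode a subunit of Mediator, the complex that links transcription factors to RNA polymerase II. The control groups were intact plants, and the cold groups had spent 24 h at 4 °C. In the drought groups, wt and sf6 only, the aerial tissue was excised and dried for 2 h at 20 to 22 °C; no group was cut and left undried, so cutting and water loss cannot be told apart. A separate set, coded 00f, 03f and 24f, was grown at 4 °C, 70% humidity and 9 h of light with 15 h of dark on compost containing the product Intercept; the labels give neither its genotype nor what the codes stand for. Each of the 13 groups had 2 arrays, each from 18 pooled plants. Nothing says that the arrays of a group came from separate sowings, so the error behind each p-value is that of the arrays at hand and may be technical only.

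A cut shoot loses water through the leaf surface and can no longer replace it, and it is wounded and handled at the same time. Plants are known to answer water loss slowly through abscisic acid (ABA), which induces protective proteins such as LEA proteins and dehydrins, and to answer touch, wounding and microbial elicitors within minutes to hours through calcium, protein kinases and transcripts that are made and lost quickly. Long cold raises a partly shared set of protective genes and slows growth.

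Of the 119 members, 46 are listed with a single gene in the platform annotation, 5 with several genes and 68 without a gene, so 73 are given by probe set identifier only. The single-gene share was 38.7% of the members and 59.2% of the whole array. Of the 46 genes, 43 have a locus in the current gene table, with 12, 5, 8, 9 and 9 of them on chromosomes 1 to 5. The median drying change of the named members was 1.22 in wt and 1.03 in sf6 (log2), and that of the others was 1.42 and 1.22, so the members that cannot be named here include most of the largest changes.

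Few of the genes usually followed in drying tissue have a named probe set, one that the annotation used here lists with a single gene. A gene without one may still be measured by a probe set given here by identifier only. Of 52 ABA and dehydration genes, 9 have a named probe set, and none was a member: in wt and sf6 the drying change was 0.37 and 0.40 for COR47 (a dehydrin), 0.35 and 0.37 for COR15A (a chloroplast-protecting cold protein), 0.53 and 0.72 for HIS1-3 (a drought-inducible linker histone) and 0.86 and 0.58 for LEA4-5 (a LEA protein). DI21 was lowest at -0.31 and -0.16, and LEA4-5 was the only one of the 9 past 0.8, in wt alone. No named gene of the lists for jasmonate (1 of 27 with a named probe set), WRKY factors (3 of 20), heat shock (2 of 19), touch and calcium binding (4 of 8) and MAP kinases with oxidative stress (2 of 20) was past 0.8 in both lines either. CML37, a calmodulin-like protein, came nearest in the touch list, with 0.61 in wt and 0.50 in sf6. None of the genes on the lists for ethylene response factors, zinc finger and MYB factors and aquaporins had a named probe set. These lists do not hold the genes removed by name, several of which belong to the same classes and did pass: the zinc finger factor STZ (3.62 and 3.23 in wt and sf6), the AP2/ERF factor ORA47 (2.50 and 2.13) and the calmodulin-like CML38 (1.51 and 1.22) and CML23 (1.43 and 1.23). Nor do they hold the calmodulin-like member AT3G25600 (0.92 and 0.81), so a count of 0 in a list does not speak for its whole class. The list contents were chosen with earlier results of these data known.

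Green leaf markers were bright in every group: 4 of 12 have a named probe set, and their summed intensity was 10714.1 to 12419.1 in the control groups, 10124.6 to 12607.0 in the dried groups, 6341.5 to 9251.9 in the cold groups and 6277.6 to 10972.9 on compost. Root marker signal was present in the agar-grown samples, also in the excised aerial tissue of the drought groups. Whether it came from root material was not tested. The summed intensity of the 2 of 6 root markers with a named probe set, PYK10 (a root beta-glucosidase) and EXPA7 (a root hair expansin), was 1606.9 to 1681.4 in wt control, 913.1 to 979.5 in wt drought, 1366.6 to 1541.2 in sf6 control, 1240.9 to 1252.4 in sf6 drought and 37.6 to 145.7 on compost. PYK10 made up nearly all of it, and EXPA7 had means of 24.75 in wt control, 27.85 in wt drought and 18.55 in 00f. The 1 named guard cell marker of 6 had 48.9 to 91.0 on agar and 26.4 to 44.1 on compost, and none of the 6 flower and seed markers has a named probe set. In bulk samples, fewer cells of a type and less RNA per cell cannot be told apart. No marker with a named probe set was at 0, and the part of other tissues in the results below was not tested.

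In the dried samples the members formed a broad band, not a single level. The median intensity over the 119 members was 42.2 and 59.6 in the 2 wt control arrays, 42.1 and 43.3 in sf6 control, 216.7 and 192.7 in wt drought and 140.0 and 135.5 in sf6 drought. The median drying change was 1.38 in wt, with a range of 0.80 to 3.21, and 1.11 in sf6, with a range of 0.80 to 2.96, against medians of -0.02 and 0.00 over all probe sets. The background share past 0.8 in both lines was 0.624% of all probe sets, which the rule itself fixed. Both dried arrays lay above both control arrays in wt and in sf6 for all 119 members. The rule chose the members on these arrays, and the share over all probe sets was not counted, so nothing is read from it. By size, 7 changed by at least 2 in both lines, and 44 changed by less than 1 in wt, sf6 or both.

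**Figure D1:**
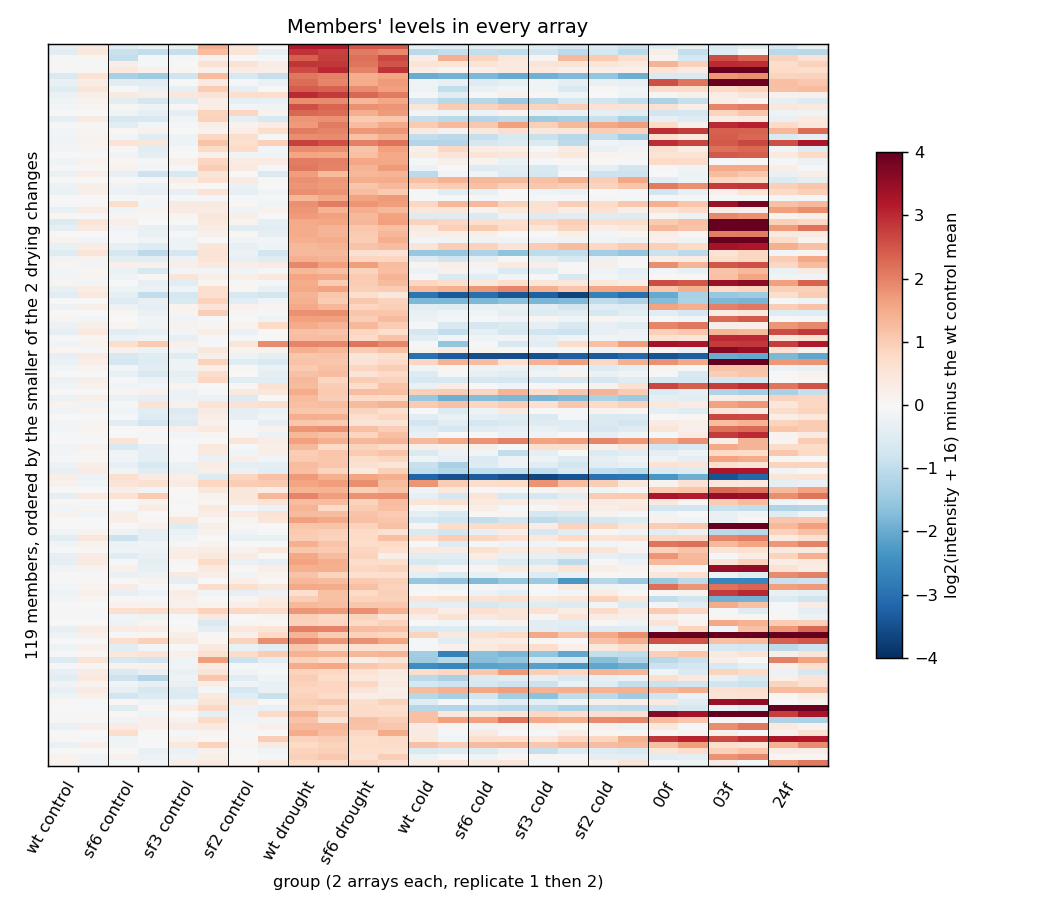
Log2(intensity + 16) minus the wt control mean for the 119 members (rows, ordered by the smaller of their drying changes in wt and sf6) in all 26 arrays (columns, 2 per group), with red for higher and blue for lower and the scale ending at -4 and 4. The wt and sf6 drought columns are red throughout by choice of the members, the cold columns hold rises and falls, and many rows are red in 03f; sf3 control replicate 2 is redder than replicate 1.

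The largest changes were on probe sets with no single gene. 247543_at read 43.5 and 77.3 in wt control against 669.4 and 673.3 in wt drought, and 39.0 and 45.7 in sf6 control against 402.5 and 396.0 in sf6 drought. 245250_at went from a mean of 21.4 ± 14.8 (SD, n = 2) to 250.4 and 221.5 in wt, and from 3.6 and 2.1 to 136.2 and 121.6 in sf6. 256356_s_at went from 18.5 and 20.5 to 171.0 and 224.7 in wt, and from 2.2 and 17.5 to 146.0 and 212.3 in sf6. In these 3 probe sets the dried arrays lay far above the control arrays of the same line, with drying changes of 3.21 and 2.83, 2.81 and 2.94, and 2.58 and 2.96 in wt and sf6.

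Among the 20 members with the largest smaller-of-the-pair change, AT4G27652 and AT1G72940 were the only ones with a single gene. AT4G27652 lies with AT4G27654 and AT4G27657 as a run of neighbouring genes on chromosome 4, with no annotated gene between AT4G27652 and AT4G27654 or between AT4G27654 and AT4G27657. AT4G27652 was at 27.6 and 29.9 in wt control and 128.5 and 172.9 in wt drought, and at 17.2 and 25.8 in sf6 control and 88.4 and 112.0 in sf6 drought. AT4G27654 was at 21.5 and 15.9 before and 91.0 and 92.8 after drying in wt, and at 18.3 and 16.2 before and 53.1 and 66.9 after in sf6. AT4G27657 was at 19.7 ± 0.99 (SD, n = 2) before and at 111.0 and 102.4 after in wt, and at 21.2 and 18.7 before and 81.2 and 83.1 after in sf6. All 3 neighbours started near the dim end of the array, and their drying changes were 1.88 and 1.63, 1.64 and 1.19, and 1.78 and 1.45 in wt and sf6.

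AT1G72940 and AT1G72900 encode proteins with a TIR domain, the signalling domain of one class of plant immune receptors, and lie near each other on chromosome 1 with 5 annotated genes between them. AT1G72920, one of the 9 probe sets removed by name, is another gene between them, 2 genes from each. AT1G72940 rested at 38.6 and 50.3 in wt control and at 48.3 and 40.9 in sf6 control, and read 232.4 and 227.4 in wt drought and 160.6 and 158.3 in sf6 drought, a change of 2.03 and 1.54. AT1G72900 read 77.5 and 152.1 in wt control, 230.2 and 194.4 in wt drought, 54.1 and 40.1 in sf6 control and 150.9 and 138.7 in sf6 drought, a change of 0.86 and 1.36. The wt control arrays of AT1G72900 differ by nearly as much as its drying change, which was not so for AT1G72940.

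Several named members belong to membranes, the cell wall or the secreted proteins. TET8 (AT2G23810) is a tetraspanin that marks extracellular vesicles in plants; it read 397.4 and 473.5 in wt control, 929.9 and 910.7 in wt drought, 316.9 and 250.8 in sf6 control and 621.2 and 632.7 in sf6 drought, changes of 1.06 and 1.11. EXPA8 (AT2G40610), an expansin, which loosens cell walls, read 249.9 and 177.0 in wt control, 716.8 and 596.8 in wt drought, 343.4 and 265.6 in sf6 control and 665.3 and 590.6 in sf6 drought, changes of 1.56 and 1.01. PDF1.4 (AT1G19610), of the plant defensin family of small secreted peptides, read 50.9 and 49.2 before and 107.4 and 96.5 after drying in wt, and 31.2 and 52.9 before and 99.4 and 87.1 after in sf6. The dried and control arrays of a line did not overlap in these 3 genes, as in all 119 members, which the rule chose on these arrays. TET8 and EXPA8 were already among the brighter members in controls.

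The efflux carrier gene AT5G52050, of the MATE family, read 15.9 and 34.8 in wt control and 77.2 and 58.4 in wt drought, and 19.4 and 12.6 in sf6 control and 36.8 and 62.7 in sf6 drought. Dimmer still were AT5G64870, a flotillin-like membrane protein (10.0 and 10.6 to 33.5 and 31.3 in wt), AT1G24140, a matrix metalloproteinase (2.5 and 5.6 to 41.4 and 39.7 in wt), and AT4G37290, whose product is a precursor of a secreted peptide induced by microbial elicitors (3.5 and 14.2 to 54.6 and 42.1 in wt). On the log2(intensity + 16) scale the changes of these dim genes are understated; they were 0.88 in wt and 0.91 in sf6 for AT5G64870, and in sf6 0.93 for AT1G24140 and 0.94 for AT4G37290. The named members AT4G11710, AT3G53250 (a SAUR-like protein, of a family of early auxin genes) and AT1G33860 were too dim to be tested in any comparison below. AT4G11710, on a probe set of the _s_at type, which can match more than one transcript, read 1.9 and 1.5 in wt control and 28.2 and 34.9 in wt drought, and 1.3 and 1.0 in sf6 control and 38.1 and 41.7 in sf6 drought. In every array outside the drought groups it read at most 1.9.

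Among genes of signalling and protein turnover, AT3G25600 (calmodulin-like), AT1G20823 (a RING finger protein of the ubiquitin ligase type), AT3G56880 (a VQ motif protein, a family that binds WRKY factors) and AT3G23880 (an F-box protein) changed by 0.92, 1.23, 1.11 and 1.29 in wt and by 0.81, 0.99, 1.22 and 0.93 in sf6. AT3G25600 and AT1G18740, with the unnamed 259417_at, were the 3 members nearest the drying threshold, their smaller changes being 0.81, 0.80 and 0.80. Just outside were 251017_at, 265200_s_at and 267591_at, also with a smaller change of 0.80. At the cold limit, 267364_at, 266908_at and 248676_at lay inside with 1.41, 1.41 and 1.39, and AT4G33980, AT2G36220 and 257280_at outside with 1.54, 1.62 and 1.92. The values lie without a gap across both limits, so the border of the set is one of the rule.

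**Figure D2:**
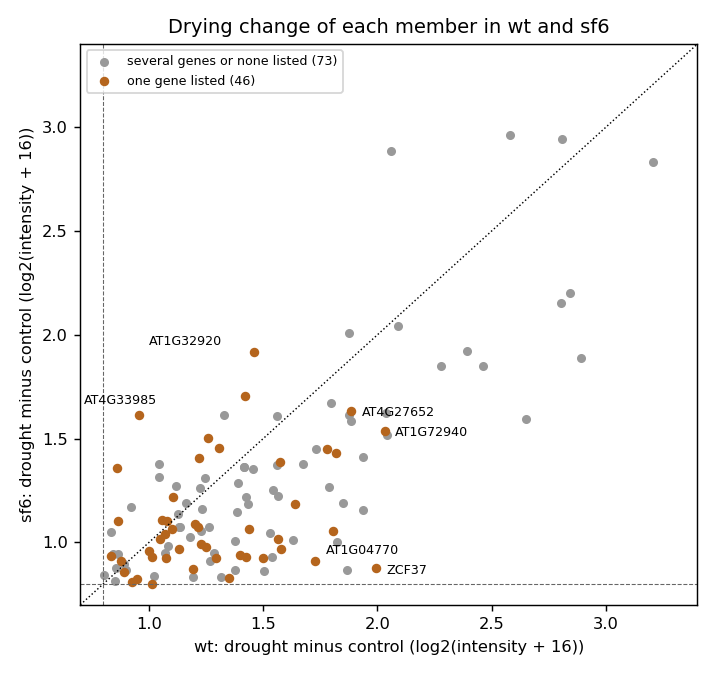
Change from control to drought on the log2(intensity + 16) scale in wt (horizontal axis) and sf6 (vertical axis) for the 119 members, with brown points for those listed with a single gene; dashed lines mark the 0.8 thresholds and the dotted line equal changes. More points lie below the dotted line (86) than above it (33).

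The drying change was larger in wt than in sf6 for 86 members and larger in sf6 for 33, and the sf6 minus wt difference had a median of -0.17 with a range of -1.12 to 0.83. The wt drought mean lay above the sf6 drought mean in 112 members. Both wt drought arrays exceeded both sf6 drought arrays in 81 members, against 18.9% of all probe sets, and the reverse held in 2 members, against 21.2%. The rule used these arrays and nothing is read from the counts. The wt control mean lay above the sf6 control mean in 81 members. The median sf6 minus wt control difference was -0.14 (log2), against -0.004 over all probe sets. The rule used the control arrays too. The share over all probe sets was not counted for the 112 or the 81 members, and nothing is read from either.

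ZCF37 (AT1G59590) had the most negative difference: it read 5.4 and 17.1 in wt control, 90.7 and 89.0 in wt drought, 17.6 and 16.8 in sf6 control and 46.5 and 43.4 in sf6 drought, so that the change was 1.99 in wt and 0.88 in sf6. The unnamed 251705_at (2.65 and 1.59), 248448_at (2.89 and 1.89) and 248169_at (1.87 and 0.87) followed. At the other end stood 267357_at, which read 54.3 and 140.1 in wt control but 26.7 and 22.9 in sf6 control, and 437.5 and 404.0 in wt drought but 270.7 and 299.7 in sf6 drought. Its larger change in sf6 (2.88 against 2.06) therefore went with a lower starting level in sf6, not a higher dried level. The same held for AT1G72900 (0.86 and 1.36); AT1G32920 (1.46 and 1.92) and AT4G33985 (0.95 and 1.61) had lower sf6 control means and dried arrays that overlapped between the lines.

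The members were uneven between the replicate controls of 2 lines. In sf3, which was not used by the rule, control replicate 2 lay above replicate 1 by at least 0.5 (log2) in 46 of the 119 members, against 4.19% of all probe sets, and it was the higher array in 99. In wt control the same held for 31 members, against 2.72%, and in sf6 and sf2 control for 3 and 9, against 1.62% and 2.04%. The wt control arrays were used by the rule. The median member intensity was 48.4 in sf3 control replicate 1 and 83.0 in replicate 2. Of the 46 and 31 members, 19 were common to both, which is 41.3% and 61.3% of them, and 0.787% of all probe sets showed both.

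SIS (AT5G02020), named for a salt-induced serine-rich protein, was the clearest named case. Its sf3 control arrays read 47.7 and 211.9 and its wt control arrays 33.6 and 87.9, so that sf3 control replicate 2 exceeded wt drought at 120.7 and 109.0. AT5G62280 read 24.0 and 98.5 in sf3 control against 146.0 and 108.0 in wt drought, and AT1G25400 read 52.2 and 139.8 against 254.2 and 254.0. The unnamed 245250_at read 2.8 and 68.7. Untreated arrays of a group thus stood up to 2.17 apart on the log2 scale in a member, and the sf3 results below depend on this array.

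The cold response of sf3 and sf2 used no array of the rule, and sf6 cold is described apart because the sf6 control arrays were used. Of the 119 members, 109 were bright enough to be tested, 105 of them also with the dried arrays left out of that filter. In sf3 25 rose and 40 fell after 24 h at 4 °C, where 20% and 24.2% of all probe sets were called higher and lower, and the median change was -0.24 against -0.05 over all tested (limma, Benjamini-Hochberg adjusted p below 0.05). In sf2 23 rose and 30 fell, against 19.8% and 22.9%, with a median of -0.12 against -0.02. Without sf3 control replicate 1 the sf3 counts became 13 rises and 50 falls, and without sf3 control replicate 2 they became 23 and 27; without sf3 cold replicate 2 the rises numbered 16.

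Across both lines 20 members rose in each, against 16% of all probe sets, and 27 fell in each, against 18.4%. None went opposite ways past the test and 38 were called in neither. The share of all probe sets was not counted for opposite or missing calls, and nothing is read from them. Members moved in both directions in the cold. The share that fell was 36.7% of those tested in sf3 and 27.5% in sf2, against 24.2% and 22.9% of all probe sets. In wt, 20 members changed by -1 or less and 11 by 1 or more, a description only, since the rule limited the wt rise. By at least 1 in both lines, 7 members rose and 8 fell, 6.42% and 7.34% of those tested against 3.97% and 3.94% of all probe sets. No member differed in cold response between sf3 and sf2 by a test of the difference (0 of 109 by limma, against 0.0234% of all probe sets), a comparison added after the data were seen. At an unadjusted p below 0.05 there were 18 members, 16.5% of those tested, against 6.85% of all probe sets.

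EXPA8 had the deepest fall in sf2 and among the named members in both lines. It read 255.6 and 137.4 in sf3 control against 2.2 and 4.9 in sf3 cold, and 392.8 and 494.1 in sf2 control against 12.7 and 13.7 in sf2 cold. The cold arrays of each line lay far below its controls, and the log2 change was -3.39 ± 0.22 (SE) in sf3 (limma adjusted p = 2.74e-09) and -3.97 ± 0.22 in sf2 (adjusted p = 5.76e-10). AT3G23880 read 67.3 and 95.1 against 23.7 and 6.1 in sf3 and 117.1 and 96.8 against 34.2 and 24.4 in sf2, changes of -1.70 ± 0.20 and -1.44 ± 0.20 (adjusted p = 3.58e-06 and 2.26e-05). The unnamed 253061_at, 260037_at and 260287_at changed by -3.29, -2.34 and -3.47 in sf3 and by -2.94, -1.95 and -2.18 in sf2, all past the test. PDF1.4 fell by 1.69 and 0.78 (adjusted p = 5.37e-07 and 0.00153), AT3G15760 by 1.23 and 0.93, and AR781 (AT2G26530) by 0.66 and 0.61. These are genes that drying raised and cold lowered.

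Fewer named genes rose in the cold. AT4G27652 read 27.0 and 36.6 in sf3 control and 70.7 and 93.0 in sf3 cold, and 33.4 and 39.1 in sf2 control and 114.0 and 126.3 in sf2 cold. All cold arrays lay above all controls of the line, with changes of 1.03 ± 0.19 and 1.38 ± 0.19 (limma adjusted p = 0.00031 and 1.87e-05). Its neighbour AT4G27657 rose by 0.82 ± 0.17 and 1.08 ± 0.17 (adjusted p = 0.000657 and 5.53e-05), while AT4G27654, which lies between them, stood at 0.06 ± 0.14 and 0.13 ± 0.14 (adjusted p = 0.753 and 0.486). So the 3 neighbours, which all met the drying rule, were not alike in the cold, though the differences between genes were not tested.

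AT3G60420, of the phosphoglycerate mutase family, read 32.9 and 27.4 in sf3 control, 103.3 and 75.2 in sf3 cold, 31.8 and 56.0 in sf2 control and 103.5 and 133.9 in sf2 cold, a rise of 1.18 ± 0.21 and 1.19 ± 0.21 (adjusted p = 0.000246 in both). It was far brighter on compost, at 907.0 to 1147.0 in the 6 arrays, than in any agar array. The wt drought arrays reached 91.8, below both sf2 cold arrays. Among unnamed members, 253722_at, 266908_at and 263379_at rose by 1.71, 1.64 and 0.98 in sf3 and by 1.91, 1.44 and 1.15 in sf2. Falls that were called in sf3 alone, such as SIS (-1.45, adjusted p = 0.00774), AT1G72900 (-0.93, adjusted p = 0.0165) and AT1G72940 (-0.52, adjusted p = 0.0217), were no longer called without sf3 control replicate 2, nor when sf3 cold and control were fitted alone. The call of AT1G72900 was also lost without sf3 cold replicate 2, and that of AT1G72940 with the arrays scaled to the same median, with quantile normalization and without either sf3 cold array.

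**Figure D3:**
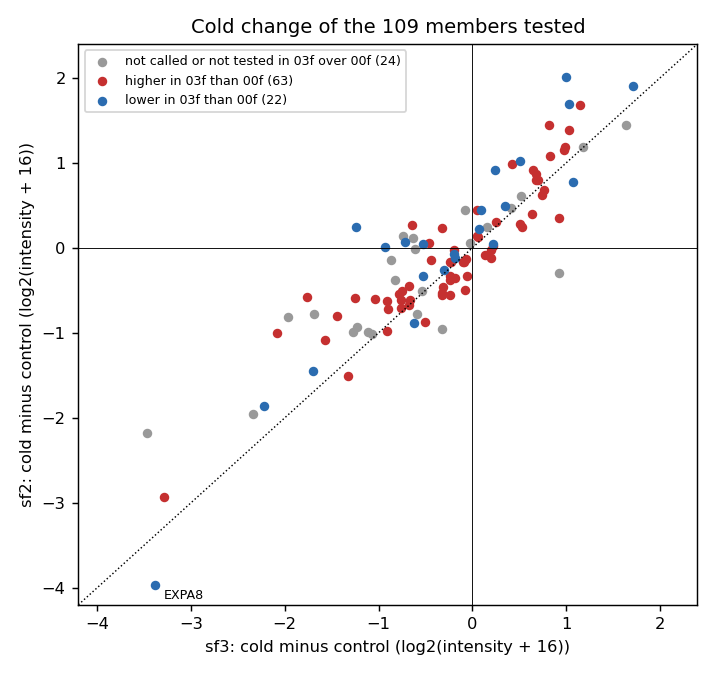
Change from control to cold on the log2(intensity + 16) scale in sf3 (horizontal axis) and sf2 (vertical axis) for the 109 members tested, coloured by their call in 03f over 00f (red higher, blue lower, grey not called or not tested); the dotted line marks equal changes. Members lie on both sides of 0 in both lines, with EXPA8 at -3.39 and -3.97.

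In sf6, cold minus control gave 29 members higher and 20 lower of 109, against 19.5% and 25.9% of all probe sets. This comparison shares its control arrays with the rule, so the values are a description and nothing rests on them. Set against the other lines in the cold, sf6 differed from sf2 in no member of 109 and from sf3 in none (limma adjusted p below 0.05), against 0.00586% of all probe sets in each direction for sf2 and 0% for sf3; at an unadjusted p below 0.05 there were 15 and 8 members, 13.8% and 7.34%, against 9.12% and 7.56% of all probe sets. The absence of calls did not hold without sf6 cold replicate 1, when calls over all probe sets also became more frequent. The median difference of the members was then 0.00 from sf2 and 0.06 from sf3, against -0.01 and 0.05 with all arrays. Between untreated sf3 and sf2, 2 members were called, both lower in sf3 (0.0586% of all probe sets were called lower and 0.234% higher): EXPA8 (-1.16) and 248169_at (-1.14). Neither call held with all probe sets tested, with sf3 and sf2 control fitted alone, or without sf3 control replicate 2 or sf2 control replicate 2. The median change of the members was 0.12 with all arrays, 0.34 without sf3 control replicate 1 and -0.12 without sf3 control replicate 2. Over all probe sets tested it was -0.01, -0.03 and 0.00.

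On compost, most members were higher in 03f than in 00f. Of 114 members tested, 67 were higher in 03f than in 00f, which is 58.8%, against 11.5% of all probe sets, and 23 were lower, 20.2% against 18.8% (limma, Benjamini-Hochberg adjusted p below 0.05). The median change was 0.92, against -0.13 over all tested. With the arrays scaled to the same median, which moved the median over all tested to 0.01, the counts were 71 and 17. Over all 17059 probe sets tested, 2611 were then called higher and 1626 lower, against 1969 and 3202 without that scaling. By size, 54 of the 67 were higher by at least 1 and 22 by at least 2 on the log2 scale, which is 47.4% and 19.3% of the members tested against 4.71% and 1.31% of all probe sets. Of the 106 members that were bright enough on the 00f arrays alone, 61 were higher and 23 lower. Of 42 named members tested, 24 were higher and 10 lower. For neither selection was the share over all probe sets counted, so nothing is read from these counts. Since the labels do not say what 00f, 03f and 24f are, the result is a difference between coded groups, and with no control group outside the code it has no other reference. Green leaf markers summed to 7750.6 to 8657.0 in 00f, 6277.6 to 6353.0 in 03f and 8547.0 to 10972.9 in 24f; their part in it was not tested.

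**Figure D4:**
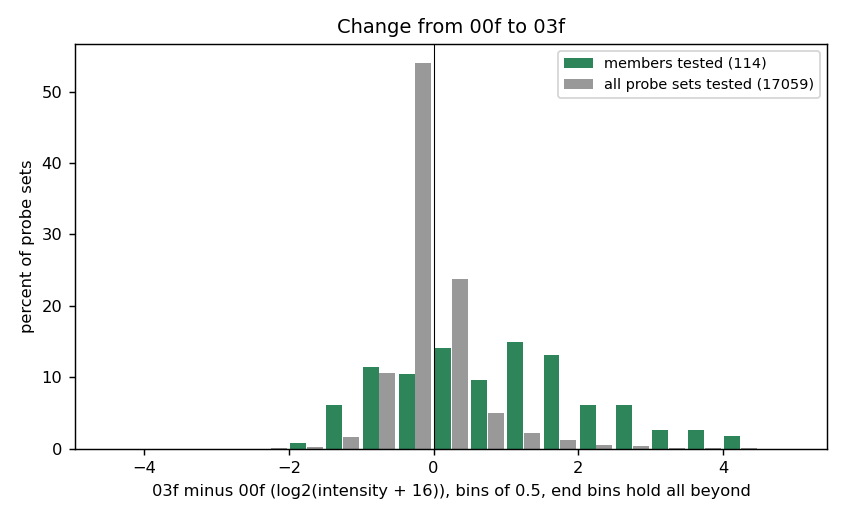
Percent of probe sets in bins of 0.5 of the change from 00f to 03f on the log2(intensity + 16) scale, for the 114 members tested (green) and all 17059 probe sets tested (grey). The members extend to the right, with 54 called higher by at least 1, whereas 54.0% of all probe sets lie between -0.5 and 0.

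The largest named rise was AT5G52050, the MATE efflux carrier gene. It read 10.9 and 12.2 in 00f, 374.1 and 364.2 in 03f and 21.6 and 24.2 in 24f. The 03f arrays were brighter than any dried array of wt or sf6, whose highest was 77.2, and the change from 00f to 03f was 3.81 ± 0.12 (SE, limma adjusted p = 1.4e-08). AT4G24380 read 81.4 and 69.8, then 1003.4 and 1030.3, then 115.7 and 93.6, a rise of 3.50 ± 0.12 (adjusted p = 2.28e-08), and AT5G65300 read 52.4 and 56.7, then 658.9 and 629.9, then 70.1 and 91.1, a rise of 3.23 ± 0.13 (adjusted p = 3.91e-08). The unnamed 253259_at read 12.0 and 7.8 in 00f and 533.1 and 537.6 in 03f, the largest rise of all members at 4.42, and 264758_at rose by 3.13.

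Each of the 3 neighbouring genes on chromosome 4 was higher in 03f. AT4G27652 read 61.2 and 35.0 in 00f, 336.6 and 368.6 in 03f and 61.2 and 44.6 in 24f. AT4G27654 read 17.8 and 15.8, then 148.7 and 172.2, then 18.9 and 16.7. AT4G27657 read 10.7 and 15.0, then 48.3 and 44.6, then 8.4 and 12.1. The 03f arrays did not overlap the others in any of them, and the rises were 2.55 ± 0.19, 2.42 ± 0.13 and 1.12 ± 0.16 (limma adjusted p = 2.76e-06, 3.93e-07 and 0.000365). AT4G27654, which the cold of sf3 and sf2 left without a call, therefore rose here with its neighbours.

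Further rises in 03f were 2.62 for AT3G04640 (a glycine-rich protein), 2.25 for AT1G18740, 1.89 for AR781, 1.66 for AT1G25400, 1.42 for AT1G23710, 1.07 for the VQ motif gene AT3G56880 and 1.12 for the flotillin-like AT5G64870. TET8 read 550.3 and 514.1 in 00f, 1036.9 and 1156.6 in 03f and 816.0 and 887.7 in 24f. Its rise was 1.02 ± 0.12 (adjusted p = 0.000103), and in 24f it still stood 0.66 above 00f (adjusted p = 0.00119). The call of AT3G25600 (0.43, adjusted p = 0.021) was lost without 00f replicate 1 or without either 03f array.

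**Figure D5:**
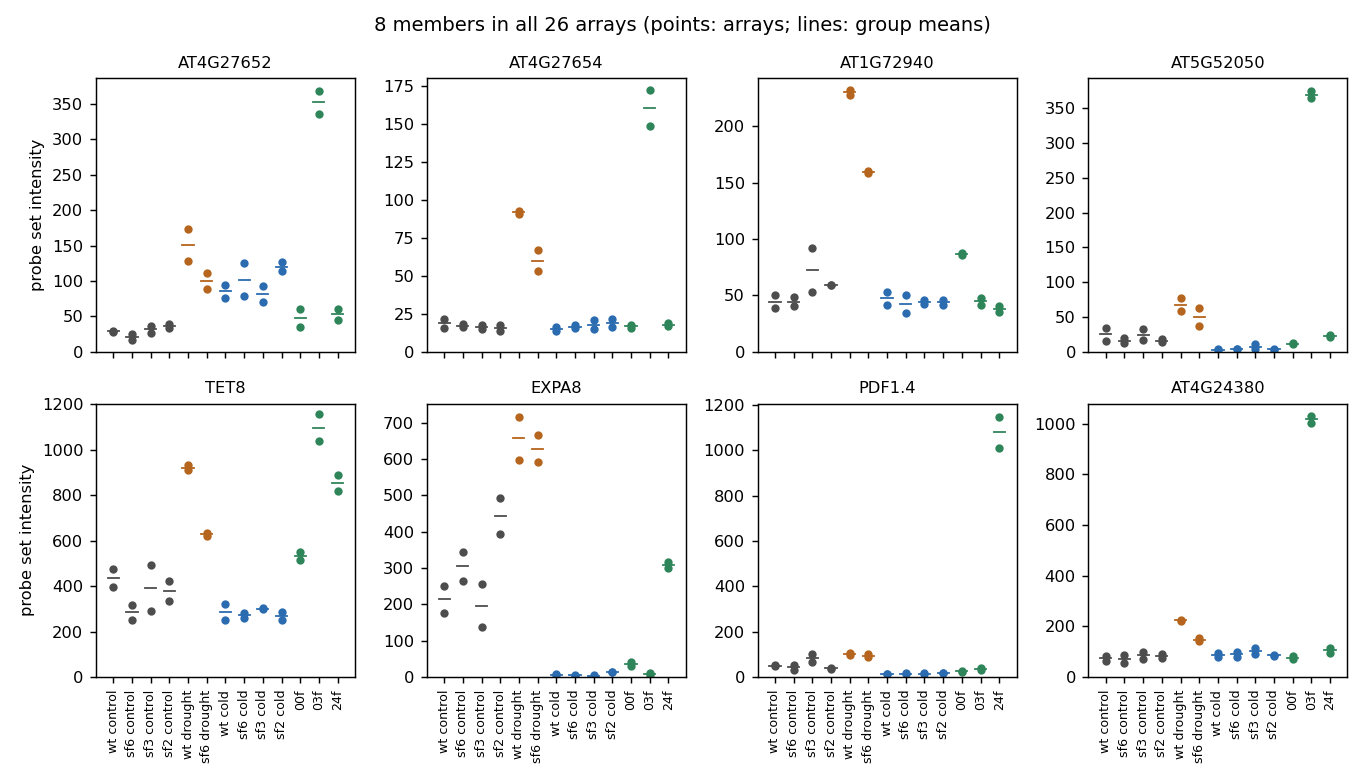
Probe set intensity (linear axes from 0, each panel with its own scale) of 8 members in all 26 arrays; points are arrays and lines group means of 2 arrays. AT4G27652, AT4G27654, AT5G52050 and AT4G24380 are highest in 03f, PDF1.4 in 24f, and EXPA8 and AT1G72940 in drought; EXPA8 is at most 13.7 in every cold array.

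Most of the members higher in 03f were lower again in 24f. Of the 67 members higher in 03f, 58 were lower again in 24f than in 03f, which is 86.6%, against 62.6% of all probe sets higher in 03f (7.22% of all probe sets tested had both calls). Among the 58, 24f did not pass the test against 00f in 30, was higher in 18 and lower in 10. The same split was not counted over all probe sets, and a missing call does not show a return to the 00f level. The 3 compost comparisons share arrays and are not independent of one another. Of the 23 members lower in 03f, 13 were higher in 24f than in 03f, which is 56.5%, against 49.7% of all probe sets lower in 03f (9.33% of all tested had both calls), a share near the background.

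Falls in 03f included both genes with a TIR domain. AT1G72940 read 87.6 and 85.7 in 00f, 41.7 and 47.8 in 03f and 40.8 and 35.6 in 24f, a fall of 0.76 ± 0.13 by 03f (limma adjusted p = 0.00117). AT1G72900 read 181.0 and 149.1, then 85.6 and 66.8, then 129.2 and 164.8, a fall of 0.98 ± 0.15 (adjusted p = 0.000702). These were the reverse of their drying change, and only AT1G72900 was higher again in 24f than in 03f (0.82 ± 0.15, adjusted p = 0.00117), AT1G72940 standing at -0.16 (adjusted p = 0.322). EXPA8 read 29.4 and 42.1 in 00f, 4.7 and 9.9 in 03f and 300.9 and 316.8 in 24f, a fall of 1.15 ± 0.16 and then a rise of 3.81 ± 0.16. AT3G23880 fell by 1.34 ± 0.17, from 22.9 and 36.8 to 1.9 and 2.0, and AT4G37290, the secreted peptide precursor, by 1.43 ± 0.22. Among unnamed members 263584_at, 248169_at and 267364_at fell by 1.78, 1.32 and 1.15.

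A smaller group was high in 24f. Of the 114 members 40 were higher in 24f than in 00f, against 20.9% of all probe sets, and 23 lower, against 21.4%, with a median change of 0.11. Against 03f, 28 were higher (26.5% of all probe sets) and 64 lower (19.8%), with a median of -0.70. PDF1.4 had a mean of 24.7 ± 1.84 (SD, n = 2) in 00f and read 40.4 and 32.0 in 03f and 1148.4 and 1011.2 in 24f. Its 24f arrays were far above its highest dried array, at 107.4, and the change from 00f was 4.75 ± 0.13 (limma adjusted p = 2.27e-08). SIS read 17.6 and 22.9, then 70.7 and 54.5, then 273.1 and 202.8, a rise of 2.80 ± 0.16 (adjusted p = 8.03e-07). AT4G14270 and AT4G05070, the latter of a wound-responsive family, fell in 03f by 0.92 and 0.79 and stood 1.39 and 1.38 above 00f in 24f (adjusted p = 1.22e-05 and 9.73e-06).

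The 03f calls and the cold calls met in every combination of directions. Of the 67 members higher in 03f, 11 rose in the cold of both sf3 and sf2 and 14 fell in both, which is 55% of the 20 that rose and 51.9% of the 27 that fell, and 16.4% and 20.9% of the 67. The first pair of shares lies near the 58.8% of all tested members that were higher in 03f. Of the 23 lower in 03f, 6 rose in both colds and 4 fell in both. Of the 107 members tested in both fits, the 11, 14, 6 and 4 are 10.3%, 13.1%, 5.61% and 3.74%, against 2.53%, 2.19%, 4.14% and 5.19% of all probe sets tested in both. AT4G27652 was higher in all of drying, cold and 03f, AR781 and 253061_at were raised by drying and higher in 03f but fell in the cold, and EXPA8 and AT3G23880 were raised by drying and fell in both cold and 03f. The labels give a growth temperature of 4 °C for every compost group. No compost group labelled with another growth temperature is there to set beside them.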

How the data were processed

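The authors deposited probe set intensity values on a linear scale for 26 ATH1 arrays, which per the deposited values have a mean of 100.01 on each array after trimming 2% at each end. Neither software nor summary method is named for them; these are not given in the sources used. Genes were named from the platform annotation, loci and neighbours from the RefSeq gene table of TAIR10.1. Differences are between means of log2(intensity + 16), taken from the authors' intensities. Limma 3.58.1 in R 4.3.3 fitted group means with an intensity trend, on 20 agar arrays (10 residual and 6.58 prior degrees of freedom) and separately on 6 compost arrays (3 and 7.52). Control probe sets and those below the 25th percentile of the fit's mean were left out, leaving 17059; p-values were adjusted by Benjamini-Hochberg over all of them, with a threshold of 0.05. SE is that of the fitted change. The steps were tested on simulated data.

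The members and gene lists were chosen with earlier results of these data known. Named genes are the 20 members with the largest smaller drying change, up to 4 per tested comparison and direction by adjusted p with groups that do not overlap, the 3 on each side of each limit, the 4 at each end of the sf6 minus wt difference, genes of the lists, and other members grouped by family. SIS, AT5G62280, AT1G25400 and 245250_at are also named for their sf3 control arrays, chosen after their values were seen. Replicate arrays correlated at 0.983 to 0.992 and no 2 arrays were identical. A repeat mark closes the titles of 2 arrays (wt control replicate 1, sf6 drought replicate 2), whose scanner background was 64.08 and 64.47 against 70.61 to 120.65 elsewhere. Alternatives were the pseudocount, scaling, filter, samples in the fit, array weights, a replicate block and each array left out. Precision is limited by having 2 arrays per group.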

Additional observations from a re-analysis of the deposited data

How the results depend on the processing

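No member call changed direction under any alternative run. The number of members that meet the rule depended on the pseudocount, at 248 with 1 and 54 with 64 instead of 119; it was 109 to 130 with an array left out, and 49 members met the rule under every alternative. Leaving out each array gave 13 to 23 rises and 27 to 50 falls for the sf3 cold response, 18 to 22 and 20 to 27 for sf2, and 62 to 66 members higher and 17 to 22 lower in 03f than in 00f. For sf6 in the cold it gave median differences of the members from -0.06 to 0.01 against sf2 and from 0.02 to 0.09 against sf3. The untreated sf3 and sf2 comparison was the least stable: members called lower were 1 with a pseudocount of 1, with array weights, with the replicate block and without both repeat-mark arrays, and 0 with all probe sets tested or only the compared groups in the fit, where the main count was 2; members called higher were 1 with a pseudocount of 64. Its leave-one-out ranges were 0 to 15 higher and 0 to 3 lower. The cause was not tested. With the arrays scaled to the same median, 24f had 22 members higher and 69 lower than 03f, against 28 and 64. Over all 17059 probe sets tested, 3212 were then called higher and 4484 lower, against 4525 and 3385.

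Same-numbered arrays deviated together only weakly (correlations of deviations from the group means from -0.21 to 0.20, 4 of 78 pairs over 0.1), so the replicate numbers are not taken as pairs. The highest correlations were 0.20 for wt control with sf3 control and 0.18 for 00f with 03f. With the replicate number as a block, 69 members were higher and 24 lower in 03f than in 00f, and 25 rose and 39 fell in sf3 cold.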
